A study of Rattus norvegicus with 18 samples.

Results

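AP-1 is a transcription factor made of 2 bZIP proteins that pair through a leucine zipper. The genes described here encode 8 of its subunits: FOS, FOSB, FOSL1 and FOSL2 of the Fos family, JUN, JUNB and JUND of the Jun family, and ATF3, a bZIP factor that pairs with Jun proteins. They were found by name among the 28909 genes of the deposited table, which spells gene names in capitals. All 8 were present and all 8 passed the filter on low values. The rule uses names only, but the gene family was picked with earlier results of these data known.

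Fos proteins bind DNA mainly as partners of Jun proteins, whereas Jun proteins can also pair with each other. FOS, FOSB and JUNB are among the immediate early genes, switched on in minutes by a stimulus with no need for newly made protein, and their mRNAs are short-lived. JUND is held at a steadier level in many cells, and FOSL1 and FOSL2 usually follow later. Serum, growth factors, stretch and hypertrophic agonists are known to induce FOS and JUN in cardiomyocytes.

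The RNA came from cultured heart ventricle cells of SD rats, wild type and 1 day old, labelled as cardiomyocytes. Cells that attached within 90 min of plating were discarded, and the rest were kept on collagen for 24 h with 10% fetal bovine serum and then changed to a medium with 0.25% serum. Control cells received DMSO and treated cells 25 µM blebbistatin, a cell-permeable inhibitor of myosin II, each for 0.5 h. One passage of the series' design text gives 0.25 µM for both assays, while its other passage and the treatment protocol give 25 µM. The series has 18 samples. RNA was sequenced in 6 of them, 3 for each treatment, and the 12 chromatin samples are not analysed here. All groups share the same serum change, and the labels do not say how long before the treatment it was made. Nor do they state a separate culture or litter for each library. The p-values thus measure only how far these libraries differ, which may be technical.

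Values are CPM, counts scaled to a library total, with a column total of 1000000 in every library. Each library has a smallest step of 0.0158 to 0.0168 CPM, and 97.8 to 99.2% of its values were a whole number of steps to within 0.02. Among values of up to 40 steps, 33.8 to 37.1% sit at every 4th step. A step is therefore not taken as 1 read, and the depth lies between 14.9 and 15.8 M if 4 steps are 1 read and 59.6 to 63.3 M if 1 step is. At the lower depth the Poisson counting error of 1 library is 4.84 to 7.92% for FOS, 2.18 to 2.88% for JUN and 11.0 to 16.6% for FOSB, which covers counting error only. Cardiomyocyte identity was checked with 13 measured markers, all of them above 1 CPM in some library, with a summed level of 29777.7 to 34173.3 CPM with DMSO and 29478 to 30592.3 CPM with blebbistatin. Fibroblast markers were also high: 10 genes summed to 40490.7 to 46983.9 CPM with DMSO and 40231.7 to 45393.6 CPM with blebbistatin. Endothelial markers (7 genes) summed to 111 to 121 and 103 to 118 CPM, and smooth muscle and pericyte markers (6 genes) to 1400 to 2188 and 1408 to 1639 CPM. Macrophage and leukocyte markers (9 genes) summed to 92.5 to 186 and 169 to 191 CPM, and red blood cell markers (5 genes, HBE1 at 0 throughout) to 28.9 to 72.5 and 26.4 to 31.2 CPM. None of the 49 markers tested had an unadjusted p under 0.05. The groups were separated for 4 of them, with PLN of the cardiomyocyte list and PTPRC and CD14 of the macrophage list higher with blebbistatin and TIE1 of the endothelial list lower. Over all genes tested, the treated libraries lay above all controls for 3.23% and below them for 2.96%. In bulk RNA of such a mixed culture, fewer cells of a type and less RNA per cell cannot be told apart, and which cells the AP-1 transcripts came from was not measured.

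On the first principal component, DMSO replicate 1 lay far from the remaining libraries, in a decomposition of all genes tested (-77.3 against -3.10 to 34.7, with 42.1% of the variance). It held the lowest macrophage sum and the highest cardiomyocyte, endothelial, smooth muscle and red blood cell sums of the DMSO group. Its part in the member results below is given as the value with and without it.

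RefSeq's promoter table (build GRCr8, a newer rat assembly than the rn6 named in the submitters' processing notes) holds 5 of the 8 members: FOSB, FOSL1, FOSL2, JUNB and JUND. The 250 bases upstream of the annotated start are shown for FOSB, whose treated and control values did not overlap, and for JUNB and JUND, Jun family genes whose values did. Capitals mark matches to any of 4 motifs searched on both strands: the cAMP response element TGACGTCA, the TPA response element TGACTCA or TGAGTCA that AP-1 itself binds, the TATA box TATAAA, and the CArG box that serum response factor binds. The letters of a CArG box can include TATAAA, and the other motifs do not contain one another.

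FOSB, chr1:88089185-88089434, minus strand: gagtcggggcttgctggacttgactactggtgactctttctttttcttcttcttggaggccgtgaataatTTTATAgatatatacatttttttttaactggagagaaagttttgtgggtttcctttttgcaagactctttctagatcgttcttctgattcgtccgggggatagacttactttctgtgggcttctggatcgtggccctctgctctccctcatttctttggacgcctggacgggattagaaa
JUNB, chr19:40080876-40081125, plus strand: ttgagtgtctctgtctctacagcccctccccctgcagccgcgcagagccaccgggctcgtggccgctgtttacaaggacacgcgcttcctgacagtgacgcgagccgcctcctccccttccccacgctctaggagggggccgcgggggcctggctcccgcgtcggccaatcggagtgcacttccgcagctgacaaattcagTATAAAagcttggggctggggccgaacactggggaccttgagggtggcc
JUND, chr16:18769772-18770021, minus strand: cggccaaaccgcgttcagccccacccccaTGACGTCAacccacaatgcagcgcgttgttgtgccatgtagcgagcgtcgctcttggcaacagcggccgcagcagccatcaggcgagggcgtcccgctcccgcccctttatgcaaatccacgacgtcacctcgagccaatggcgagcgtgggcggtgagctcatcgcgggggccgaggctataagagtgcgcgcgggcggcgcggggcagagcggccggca

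The JUND window held 1 cAMP response element, from -221 to -214 relative to the start, a motif present in 1.59% of 33469 RefSeq windows of this length. JUNB had a TATA box from -49 to -44, and FOSB had one on the opposite strand from -180 to -175 (12.9% of windows hold one). None of the 5 windows held a TPA response element (4.05% of windows) or a CArG box (1.5%), which says only that these letters are not in those 250 bases. The windows of FOSL1 and FOSL2 held none of the 4 motifs. FOSB's window had 43.6% G and C, against 62% for FOSL1, 70.4% for FOSL2, 66% for JUNB and 68.4% for JUND. A match is a description of the sequence and no evidence of binding.

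After 0.5 h of blebbistatin, FOS, FOSB and JUN were each lower in all 3 treated libraries than in any control, by 2.53-fold, 1.79-fold and 1.49-fold between means. The other 5 subunit genes had overlapping groups. None of the 8 passed the threshold of a limma adjusted p under 0.05 over all 15204 genes tested, where 3 genes passed (0.0197%). FOS came nearest, with an adjusted p of 0.0579 and the rank 4 by p among all genes, while JUN ranked 20 and FOSB 28. At an unadjusted p under 0.05, 3 of 8 members were lower and 0 higher, against 0.783% of all genes lower and 0.737% higher. The blebbistatin libraries lay below all DMSO libraries for the same 3 of 8 members, against 2.96% of all genes tested, and above them for 0 of 8, against 3.23%. Log2 fold changes, blebbistatin minus DMSO, were negative for 7 members and positive for 1, with a median of -0.26, while the median over all genes was 0.0038 and 49.4% were negative.

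**Figure D1:**
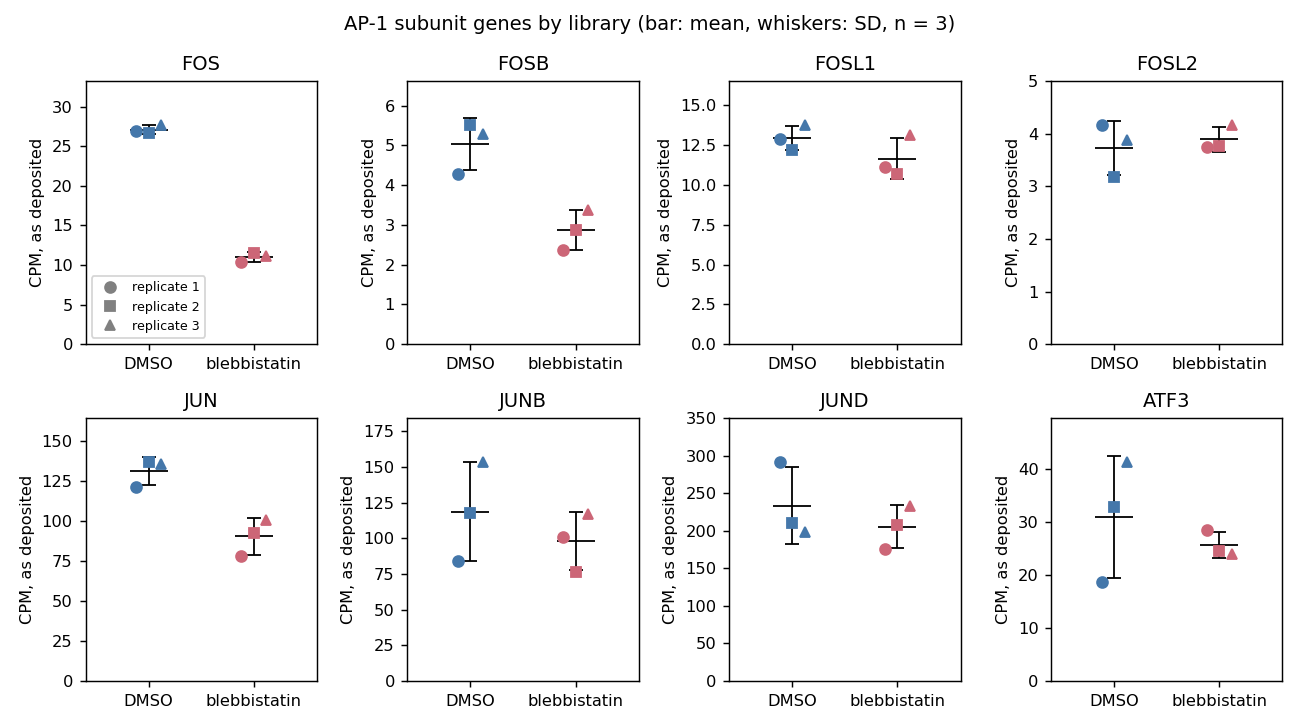
Each panel shows 1 AP-1 subunit gene, with CPM as deposited on the vertical axis from 0 and the 3 DMSO and 3 blebbistatin libraries as points shaped by replicate number; the bar is the mean and the whiskers the SD (n = 3). The treated points lie below all controls for FOS, FOSB and JUN and overlap them in the other 5 panels.

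FOS, the founding member of its family and the classic immediate early gene, was at 26.9, 26.6 and 27.7 CPM in the DMSO libraries 1 to 3. With blebbistatin it was at 10.3, 11.6 and 11.1 CPM. Every control was far above every treated library, and the spread inside each group was small. Scaled by the TMM factors, the means were 27.5 ± 1.35 and 10.8 ± 0.768 CPM (SD, n = 3 each). The log2 fold change was -1.33 ± 0.13 (SE), with a 95% interval of -1.65 to -1.02 and an unadjusted p of 1.52e-05 in limma. The gap between the nearest control and treated libraries was 1.18 on the log2 scale, while the 3 controls spanned 0.14 and the 3 treated libraries 0.20. Without DMSO replicate 1 the log2 fold change was -1.29 (adjusted p = 0.0586), so the value does not rest on the library that stood apart. When that library was left out but the genes and scaling factors of the 6 libraries were kept, a setting added after the data were seen, the adjusted p was 0.0372. Leaving out any other library raised the adjusted p of FOS, to 0.630 without DMSO replicate 2, 0.172 without DMSO replicate 3, and 0.311, 0.272 and 0.472 without blebbistatin replicates 1, 2 and 3. FOS thus stayed above the threshold in all 6 planned fits with a library left out, and was below it in the added one.

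FOSB, whose protein has the same DNA-binding partners as FOS, was at 4.28, 5.52 and 5.30 CPM with DMSO and at 2.36, 2.88 and 3.37 CPM with blebbistatin. All treated values were below all controls, with 0.46 between the nearest pair on the log2 scale. The scaled means were 5.08 ± 0.428 and 2.83 ± 0.512 CPM (SD, n = 3 each). The difference on the log2 scale was -0.83 ± 0.22 (SE; 95% interval -1.34 to -0.33; unadjusted p = 0.00568, limma adjusted p = 0.991). FOSB was measured at 146 to 329 steps per library, and its interval was wider than that of FOS.

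FOSL1, which encodes Fra-1, was at 12.9, 12.2 and 13.8 CPM with DMSO and at 11.1, 10.7 and 13.1 CPM with blebbistatin. Blebbistatin replicate 3 lay inside the control range and the other treated libraries below it. The log2 fold change was -0.19 ± 0.15 (SE), with a 95% interval of -0.55 to 0.17, which does not reach the interval of FOS. The groups of FOSL1 were separated without DMSO replicate 2 or without blebbistatin replicate 3, settings in which 5.69% and 5.68% of all genes tested had treated libraries below the controls. FOSL2, which encodes Fra-2, was at 4.17, 3.17 and 3.87 CPM with DMSO and at 3.75, 3.76 and 4.17 CPM with blebbistatin. The treated values of FOSL2 lay inside the control range or, in blebbistatin replicate 3, at its upper edge. The difference was 0.027 ± 0.21 (SE) on the log2 scale, with a 95% interval of -0.47 to 0.52, and its sign turned without DMSO replicate 2 (-0.10) or blebbistatin replicate 3 (-0.019).

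**Figure D2:**
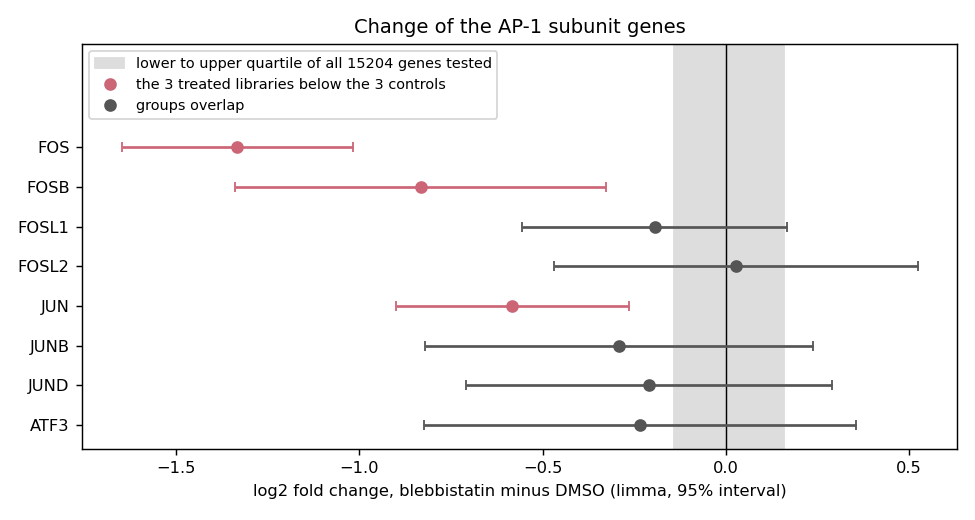
Points are limma log2 fold changes of the 8 AP-1 subunit genes (horizontal axis, blebbistatin minus DMSO) with 95% intervals, and the grey band is the span from the lower to the upper quartile of all 15204 genes tested, -0.14 to 0.16. The intervals of FOS, FOSB and JUN lie below 0, and those of the other 5 include 0.

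JUN, the main partner of FOS in the AP-1 dimer, was at 121.2, 137 and 136 CPM with DMSO. In the treated libraries it was at 78.2, 92.6 and 101 CPM. The 2 ranges were apart by 0.40 on the log2 scale after scaling, and the scaled controls were close together (133 ± 2.56 CPM) while the treated libraries spread more (89.3 ± 11.9 CPM; SD, n = 3 each). The log2 fold change was -0.58 ± 0.14 (SE; 95% interval -0.90 to -0.26; unadjusted p = 0.00318, limma adjusted p = 0.991). Without DMSO replicate 1 it was -0.59.

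JUNB, an immediate early Jun gene whose protein activates transcription less strongly than JUN in many settings, was at 84.3, 117.4 and 154 CPM with DMSO and at 101, 76.2 and 117.2 CPM with blebbistatin. The groups overlapped because DMSO replicate 1 was low, 0.54 below the mean of the other controls on the log2 scale. The log2 fold change was -0.29 ± 0.23 (SE) with all libraries (95% interval -0.82 to 0.24) and -0.47 without that library (unadjusted p = 0.0387, limma adjusted p = 1.0). JUND went the other way in that library, at 292, 209.9 and 198 CPM with DMSO and at 176, 208 and 233 CPM with blebbistatin. DMSO replicate 1 was the highest of all 6 libraries, 0.65 above the mean of the other controls. The log2 fold change of JUND was -0.21 ± 0.21 (SE; 95% interval -0.71 to 0.29), and without DMSO replicate 1 it turned to 0.0098.

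ATF3, a stress-induced factor that represses or activates its targets depending on its partner, was at 18.7, 32.9 and 41.5 CPM with DMSO and at 28.6, 24.7 and 24.1 CPM with blebbistatin. The controls lay on both sides of the treated libraries, and their coefficient of variation was 33.3%, the largest of the 8 members, against 8.44% with blebbistatin. The log2 fold change was -0.23 ± 0.25 (SE; 95% interval -0.82 to 0.36; unadjusted p = 0.383). Without DMSO replicate 1, which was 0.85 below the mean of the other controls on the log2 scale, it was -0.52 (unadjusted p = 0.00762, limma adjusted p = 1.0). In that setting 5 of 8 members had separated groups, JUNB and ATF3 beside FOS, FOSB and JUN, against 5.92% of all genes tested with the treated libraries below both controls. The same 5 were lower at an unadjusted p under 0.05, against 0.799% of all genes. JUNB was apart there by only 0.0048 on the log2 scale, and ATF3 by 0.23.

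Spread within the controls thus differed between members. The coefficient of variation of the 3 DMSO libraries was 1.92% for JUN, 4.93% for FOS, 7.21% for FOSL1 and 8.41% for FOSB. It was 17.9% for FOSL2, 25.3% for JUNB and 27.7% for JUND. DMSO replicate 1 differed from the mean of the other controls, on the log2 scale after scaling, by 0.12 for FOS and for FOSL1, -0.20 for FOSB, 0.37 for FOSL2 and -0.042 for JUN.

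**Figure D3:**
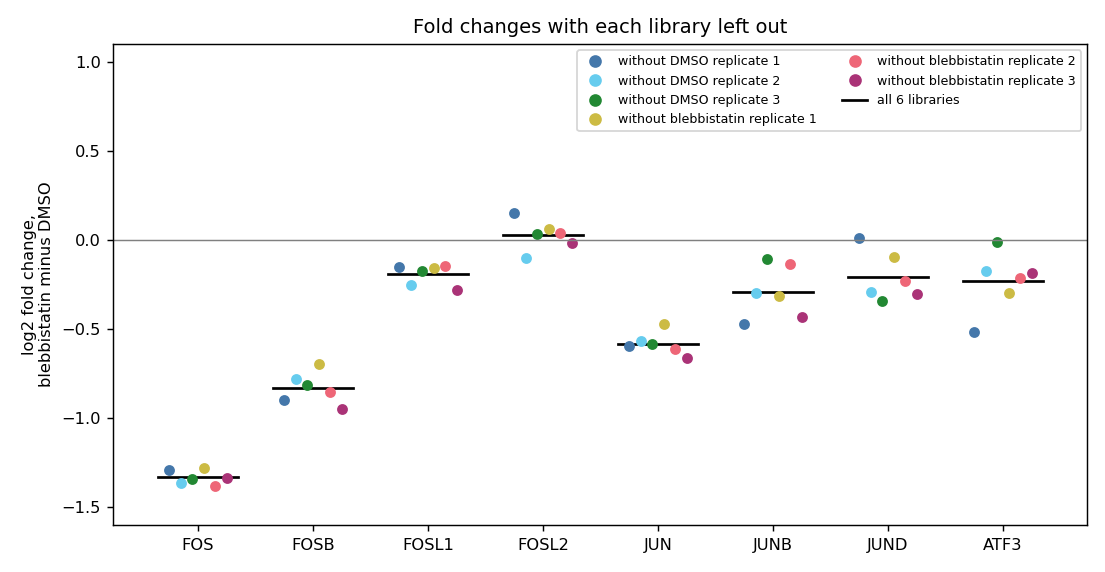
Log2 fold changes (vertical axis, blebbistatin minus DMSO) of each member with each library left out in turn, as coloured points, beside the value from all 6 libraries, as a black line. FOS stays between -1.38 and -1.28 and JUN between -0.66 and -0.47, while JUND and FOSL2 have points on both sides of 0 and ATF3 runs from -0.52 to -0.010.

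FOS was compared with each other member as a ratio within a library, since the change of such a ratio depends neither on gene length nor on the scaling between libraries. The test was added after the data were seen. FOS was at 2.09, 2.18 and 2.01 times the CPM of FOSL1 with DMSO and at 0.926, 1.08 and 0.845 times with blebbistatin. Relative to JUN, FOS was at 0.222, 0.194 and 0.204 with DMSO and at 0.132, 0.125 and 0.11 with blebbistatin. Both ratios were lower in every treated library than in every control.

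The log2 ratio of FOS to FOSL2 differed by -1.37 between groups, to FOSL1 by -1.15, to JUND by -1.13, to ATF3 by -1.11, to JUNB by -1.05, to JUN by -0.76 and to FOSB by -0.49. All 7 ratios were separated between groups, with the narrowest gap for FOSB (0.14). For each of the 7, the two-sided exact permutation test gave p = 0.1, adjusted p = 0.1 over the 7 ratios. This is the smallest p that 3 libraries against 3 allow, so the design cannot pass 0.05. All 7 ratios hold the same FOS values and are not independent of each other. FOS had the lowest log2 fold change of the members, at -1.33, with FOSB next at -0.83. The negative sign of all 7 differences therefore follows from the choice of FOS as numerator and restates the result for FOS. Separation of the groups and the width of the gaps are not fixed by that choice alone.

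**Figure D4:**
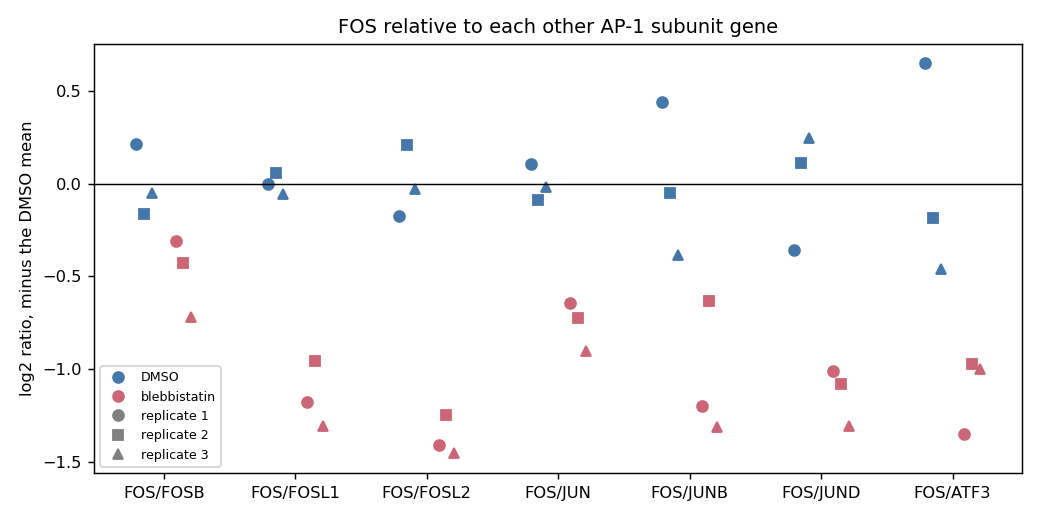
The vertical axis is the log2 ratio of FOS to each other member within a library, minus the mean of the 3 DMSO libraries, with points coloured by group and shaped by replicate number. The blebbistatin points lie below the DMSO points for all 7 ratios, with the smallest gap for FOS/FOSB. FOS had the lowest log2 fold change of the members, so a lower treated mean follows from its use as numerator.

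Genes around AP-1 were described by role with 5 lists of 100 gene names, a few of them aliases of another listed name. Of these names, 96 were in the table and 91 were tested. At an unadjusted p under 0.05, 3 were lower and 0 higher, against the 0.783% and 0.737% of all genes given above, and 0 passed the adjusted threshold. The median log2 fold change of the 91 genes was -0.049.

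Of the transcription factors and co-factors listed upstream of FOS and JUN (11 tested, median -0.082), 0 had an unadjusted p under 0.05. SRF, serum response factor, was at 161, 173 and 198 CPM with DMSO and 157, 151 and 175 CPM with blebbistatin, with a log2 fold change of -0.18 ± 0.12 (SE). The SRF partner genes ELK1 and ELK4 had log2 fold changes of -0.082 ± 0.11 and 1.13 ± 0.62 (SE). ELK4 was at 106 and 142 CPM in blebbistatin replicates 1 and 3 but at 25.1 CPM in replicate 2, just under the control range of 25.4 to 43.5 CPM. CREB1, which binds cAMP response elements, and MEF2C, a muscle transcription factor, were at -0.22 ± 0.18 and -0.34 ± 0.29 (SE).

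In the MAP kinase cascade that leads to AP-1, 28 genes were tested with a median of -0.038 and 0 at an unadjusted p under 0.05. MAPK3, which encodes an ERK kinase, had a log2 fold change of 0.21 ± 0.16 (SE). ARAF, a Raf kinase, was at 0.18 ± 0.13, MAP2K7, a kinase of JNK, at -0.17 ± 0.14, and MAP3K1 at 0.86 ± 0.67 (SE). For ARAF the treated libraries lay above all controls, but only after scaling. MAP3K1 was at 1.55 CPM in DMSO replicate 1 and at 11.4 and 9.96 CPM in the other controls. With blebbistatin it was at 8.26, 13.2 and 11.0 CPM, so its positive value leans on DMSO replicate 1. MAPK3 and ARAF were also lowest of all libraries in DMSO replicate 1, at 81.4 and 37.1 CPM, while MAP2K7 was not. MAPK7 had the lowest value of the list (-3.01 ± 3.51), was listed at 0 in 1 control and 2 treated libraries, and was chosen after its values were seen. These are mRNA levels, and kinase activity was not measured.

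Among other bZIP genes 15 were tested, with a median of 0.012 and 0 at an unadjusted p under 0.05. MAFG, a small Maf factor, was at 34.2, 39.7 and 41.1 CPM with DMSO and 37.7, 31.3 and 33.8 CPM with blebbistatin (log2 fold change -0.20 ± 0.12, SE), with groups apart only after scaling. DDIT3, the stress factor CHOP, was at 0.63 ± 0.43. Its level was 7.41 CPM in DMSO replicate 1 and 18.7 and 28.0 CPM in the other controls. With blebbistatin it was at 32.4, 18.5 and 26.2 CPM, so the positive value leans on DMSO replicate 1. BATF2 and MAFA, at -1.14 ± 0.57 and 0.92 ± 0.55, had means of at most 1.15 CPM. For genes listed for a role in the turnover or repression of AP-1 proteins or their mRNAs, 13 were tested with a median of -0.14. Of these, 11 were negative and 0 had an unadjusted p under 0.05. TRIB1, a pseudokinase that brings substrates to a ubiquitin ligase, had the lowest p of these, at -0.44 ± 0.21 (SE; unadjusted p = 0.0685). FBXW7, the ubiquitin ligase subunit that marks JUN for degradation, was at -0.28 ± 0.18, with ITCH at -0.16 ± 0.19 and KHSRP, a factor of mRNA decay, at -0.29 ± 0.35 (SE).

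Textbook AP-1 targets (24 tested, median -0.023) held the 3 listed genes with an unadjusted p under 0.05, all lower. LIF, a cytokine of the interleukin 6 family, was at 18.6, 22.0 and 22.3 CPM with DMSO and 13.5, 12.7 and 13.9 CPM with blebbistatin, a log2 fold change of -0.68 ± 0.13 (SE; limma adjusted p = 0.991). PTGS2, the inducible cyclooxygenase, was at 19.6, 20.7 and 17.7 CPM against 13.6, 16.1 and 11.9 CPM (-0.52 ± 0.17). EDN1, which encodes endothelin 1, was at 34.5, 67.2 and 80.5 CPM against 34.1, 28.3 and 34.5 CPM (-0.87 ± 0.27). For LIF and PTGS2 the groups did not overlap. For EDN1 they were apart only after scaling, since DMSO replicate 1 lay at the level of the treated libraries. The cyclin gene CCND1 was at -0.15 ± 0.14 (SE). Of the 24 genes, 13 were negative and 11 positive. The list was chosen with earlier results of these data known, so its 3 lower genes are no independent support for an effect on AP-1 targets.

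**Figure D5:**
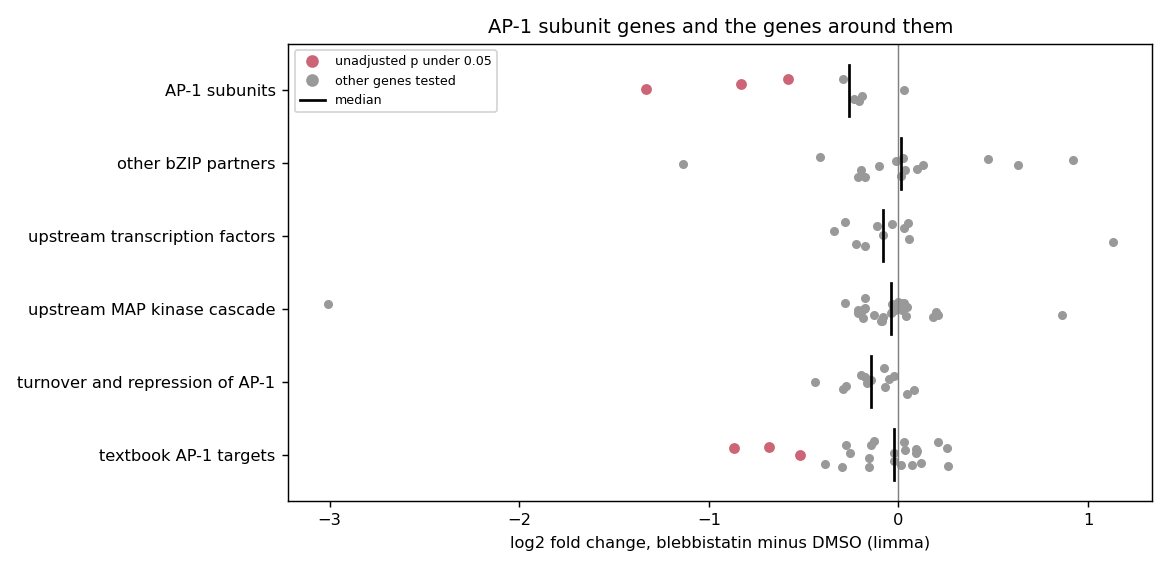
Log2 fold changes (horizontal axis, blebbistatin minus DMSO) of the 8 AP-1 subunit genes and of the 5 lists around them, 1 point per gene, with genes at an unadjusted p under 0.05 in red and the list median as a black bar. Red points occur among the subunits (3 of 8) and the textbook targets (3 of 24) and not in the other 4 lists. Subunits and lists were chosen with earlier results of these data known.

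The genes whose pattern over the 6 libraries was most like that of FOS, by Pearson's r of log2 values among 10087 named genes with a mean of at least 5 CPM, were RBM12 (0.995), ZFP36L1 (0.982), PLK2 (0.978), LIF (0.974) and RELL1 (0.973). RBM12 encodes an RNA-binding protein and was listed at 0 in all 3 blebbistatin libraries, with 23.3 ± 2.63 CPM in the DMSO libraries (SD, n = 3). Its log2 fold change of -7.87 ± 0.25 (SE) depends on the added 0.1 CPM, and its r rests on treated values that are all 0. Why it was listed at 0 was not tested, and FOS itself was not at 0 in any library. ZFP36L1, an mRNA decay factor gene, had the shape but not the size, at a log2 fold change of -0.15 ± 0.11 (SE), and RELL1 was at -0.14 ± 0.12. PLK2, which encodes a polo-like kinase, stood at -0.70 ± 0.12. For JUN the most similar genes were CITED2 (0.984), EGR2 (0.975), DUSP6 (0.970), BLCAP (0.968) and OTUD1 (0.966). CITED2, a transcriptional co-regulator gene, was at -0.49 ± 0.13, EGR2, an immediate early zinc finger factor gene, at -1.17 ± 0.17 and DUSP6, an ERK phosphatase gene, at -0.26 ± 0.12 (SE). A value of r of 0.9 or more was reached by 22 genes for FOS and 30 for JUN. With 6 points that share the libraries and 2 groups, r mostly states that the groups differ in the same direction, and it is given as a description.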

How the data were processed

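RNA from 6 libraries, 3 with DMSO and 3 with blebbistatin, was measured by sequencing. Per the submitters' processing notes, the build was rn6 and the tools included StringTie 1.3.4, HISAT2 2.1.0 and edgeR 3.20.9, with no role stated. The annotation, the strand setting and the counting rule are not given in the sources used here. The deposited values are taken as CPM made by the authors, although the design assumed counts might be found. The equal column totals show only a scaling to a common total. The whole steps described above are those of counts that were not divided by gene length. Whole reads were not recovered, so no count test was run.

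CPM were divided by unweighted TMM factors (0.929 to 1.03; trims 0.3 and 0.05), and log2(CPM + 0.1) was tested with limma 3.58.1 in R 4.3.3 (eBayes with trend and robust settings, no block, two-sided, Benjamini-Hochberg over all genes, threshold 0.05). Because of the added 0.1 CPM, fold changes of low genes come out too small. Genes entered with at least 0.162 CPM, or 10 steps, in 3 libraries, which left 15204 of 19425 genes above 0. Per-library values are deposited CPM, and means ± SD are scaled. The steps were tested on simulated data. Gene names matched 17134 RefSeq symbols and 1840 synonyms. Exact permutation tests used Python 3.11.15.

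Members, lists and tests were chosen with earlier results of these data known. Named genes were the 8 members, up to 4 genes per list with the lowest p, a few fixed genes (among them SRF, ELK1, ELK4, MAPK3 and CCND1) and the 5 genes most like FOS and JUN. Some genes that this rule names are not reported here. Alternatives covered scaling, pseudocount, filter, threshold, robust setting, replicate block and each library left out.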

Additional observations from a re-analysis of the deposited data

How the results depend on the processing

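FOS, FOSB, FOSL1, JUN, JUNB and ATF3 kept a negative log2 fold change under all 16 alternatives, while that of FOSL2 and JUND turned in 2 each. With libraries left out, FOS ran from -1.38 to -1.28, FOSL2 from -0.102 to 0.153 and JUND from -0.34 to 0.00983 (0.0077 with the genes and factors of the 6 libraries kept). With 1 library left out, genes called over all genes tested ran from 2 to 6 (3 with all libraries), members called from 0 to 1, members lower at an unadjusted p under 0.05 from 3 to 5 and members with separated groups from 3 to 5. Over all genes tested, 0.553 to 2.87% were lower at an unadjusted p under 0.05 in these settings and 5.68 to 11% had all treated libraries below the controls. The 6 genes and the 1 member, FOS (log2 fold change -1.29), were called only without DMSO replicate 1 and with the genes and factors of the 6 libraries kept, a setting chosen after seeing the data. In the planned fits with a library left out, 2 to 4 genes and 0 members were called. The 5 members also came without DMSO replicate 1, and the cause was not tested. At an adjusted p under 0.1, 1 member was called.

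With the replicate block FOS had an adjusted p of 0.999 (unadjusted p = 0.000554), 2 genes and 0 members were called, and 3 members were lower at an unadjusted p under 0.05. Deviations of same-numbered libraries correlated at -0.289, 0.0542 and -0.092, whereas DMSO replicate 3 and blebbistatin replicate 1 reached 0.376, so the numbers give no sign of pairing. The adjusted p of FOS ran from 0.0372 to 0.999 over the alternatives and its unadjusted p from 1.47e-05 to 0.000554. The count tests planned for recovered reads were not run, because a step of the values could not be equated with 1 read. FOSB and FOSL2, with 146 to 329 and 189 to 257 steps per library, are limited most by depth.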
